A study of Mus musculus with 10 samples.

Results

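The amino acid carriers of the solute carrier families Slc1, Slc3, Slc6, Slc7, Slc36, Slc38 and Slc43 were taken by gene symbol and followed through a study of mouse kidney after ischaemia. They made up 61 of the 33644 genes in the bulk RNA table, with 7 genes in Slc1, 2 in Slc3, 19 in Slc6, 15 in Slc7, 4 in Slc36, 11 in Slc38 and 3 in Slc43. The single-cell table of an injured kidney listed 42 of them among 15340 genes, and that of an uninjured kidney listed 37 among 13217 genes. All mice were 8 weeks old. Injured kidneys were taken 2 weeks after one renal artery had been tied for 15 minutes, and contralateral kidneys were the untied partners. There were 3 arms with both kinds of kidney. In the labelled Ihh-deleted arm, Pax8creERT2;Ihhfl/fl mice received tamoxifen, so that Cre, driven by a promoter of tubule epithelium, could remove the ligand gene Ihh. In the wild-type tamoxifen arm, C57/BL6 mice received tamoxifen, and in the floxed vehicle arm, Pax8creERT2;Ihhfl/fl mice received vehicle; these are called the intact arms. C57/BL6 kidneys left after removal of the other kidney (nephrectomy) and C57/BL6 uninjured kidneys completed the bulk groups. The bulk table holds 4 numbered libraries per group, and the labels do not say that they are separate animals, so p-values measure only the spread between these libraries.

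Proximal tubule cells recover filtered amino acids with sodium-, proton- and exchange-driven carriers in the apical brush border and release them to blood through basolateral carriers. Several carriers work as pairs of a light chain, which moves the amino acid, and a glycoprotein heavy chain, Slc3a1 at the apical and Slc3a2 at the basolateral side. A further set of carriers feeds growing or activated cells, leukocytes among them, and many of these are targets of Atf4, the transcription factor that cells switch on when amino acids run short or protein folding fails.

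Totals, in mega-counts (M), ran from 18.2 to 37.98 M in the 24 libraries of the 3 arms and from 8.34 to 28.05 M in 3 nephrectomy libraries, and were 0.593 and 7.56 M in 2 uninjured libraries. The remaining 3 libraries, uninjured 1 and 4 and nephrectomy 3, carry a heart and not a kidney profile and were left out, so 29 libraries were used. Library 2 of the contralateral floxed vehicle group stood apart, with the highest total and a summed proximal tubule marker level of 62540 CPM (counts-per-million), where the contralateral median was 40680 CPM. Within that sum the androgen-regulated tubule gene Kap was higher, at 31430 CPM against 7494 to 12340 CPM in the other contralateral libraries, while Lrp2, the endocytic receptor megalin, was lower there, at 3299 CPM against 9499 to 12040 CPM. Ihh had 4.25, 6.003, 5.34 and 4.31 CPM in the injured and 4.80, 9.39, 3.88 and 18.3 CPM in the contralateral labelled Ihh-deleted libraries, against 4.77 to 13.7 CPM in injured and 8.73 to 16.5 CPM in contralateral libraries of the intact arms. Contralateral library 4 of the labelled Ihh-deleted arm, above all intact libraries, went against its label, and contralateral library 2 and injured libraries 2 and 3 lay inside the intact ranges. The whole-gene value does not read the deleted part alone. Proximal tubule markers, 15 of 15, fell in injured kidneys, and markers of macrophages (8 of 8), T and NK cells (9 of 10) and B cells (4 of 4) rose. In bulk RNA, fewer cells of a type and less RNA per cell cannot be told apart. CPM values below are scaled with TMM factors, which set the bulk of genes level between libraries.

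Of the 61 members, 51 passed the filter on low counts and were tested. None of the 10 others, among them Slc38a5, Slc38a8 and Slc36a3, went above 1.44 CPM in any of the 29 libraries, and Slc6a11 had 0 counts in all of them. Per length, in TPM (transcripts-per-million), the most abundant member in contralateral kidneys was Slc7a13, at 900 ± 207 TPM (SD, n = 12). It was followed by Slc3a1 at 796 ± 73.5, Slc6a18 at 478 ± 63.5, the taurine carrier Slc6a6 at 346 ± 74.7, Slc6a19 at 326 ± 82.9 and Slc1a1 at 324 ± 51.2 TPM. Slc7a13 and Slc3a1 were within 1 SD of each other, as were Slc6a6, Slc6a19 and Slc1a1. In injured kidneys the same 2 members led, at 449 ± 301 TPM for Slc7a13 and 435 ± 216 TPM for Slc3a1 (SD, n = 12), and Slc6a19 had rank 11 there, at 119 ± 57.9 TPM, against rank 5 in contralateral kidneys.

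Injured kidneys held less RNA of 6 of the 7 apical carriers than contralateral kidneys. Over all members, the quasi-likelihood test of edgeR, adjusted after Benjamini and Hochberg, called 43 of 51 at 0.05, 18 higher and 25 lower, when 73.7% of all 17591 genes tested were called, 39.0% higher and 34.7% lower. The median log2 fold change of the members was -0.355, and that of all genes was 0.05. The median of the 7 apical carriers was -1.49. Slc6a19, which takes up neutral amino acids with sodium, had 41.6, 157 and 385 CPM in injured kidneys as the lowest, median and highest of 12 libraries, against 426, 588 and 862 CPM in contralateral kidneys. No injured library reached the lowest contralateral one, and the fitted log2 fold change was -1.91 (SE 0.21, adjusted p = 2.68e-08). Slc3a1, the heavy chain of the cystine carrier, had 118, 334 and 796 CPM in injured kidneys and 802, 878 and 1029 CPM in contralateral kidneys. The groups were again separate, narrowly so at the top of the injured range, with a log2 fold change of -1.4 (SE 0.16, adjusted p = 5.62e-08). Its light chain Slc7a9, which takes up cystine and dibasic amino acids, had 20.2, 49.4 and 101 CPM in injured kidneys and 111, 140 and 189 CPM in contralateral kidneys, without overlap. Slc7a9 fell by 1.55 on the log2 scale (SE 0.16, adjusted p = 1.09e-08).

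Slc1a1, the carrier of glutamate and aspartate, also had groups that did not overlap, at 62.7, 213 and 428 CPM in injured and 506, 540 and 641 CPM in contralateral kidneys. It fell by 1.49 on the log2 scale (SE 0.18, adjusted p = 9.04e-08). The share of all genes with separate groups was not counted, so separation is not read as particular to these carriers. Slc7a13, the second partner of Slc3a1 and a carrier of cystine and acidic amino acids in the straight part of the tubule, had 50.5, 343 and 1020 CPM in injured and 565, 936 and 1332 CPM in contralateral kidneys. Its groups overlapped, since labelled Ihh-deleted injured libraries 2 and 3, at 760 and 1020 CPM, lay inside the contralateral range, and it fell by 1.60 (SE 0.24, adjusted p = 1.81e-06). Slc6a18, a brush border carrier of glycine and other neutral amino acids in mice, had 86.9, 257 and 630 CPM in injured and 577, 638 and 762 CPM in contralateral kidneys and fell by 1.30 (SE 0.17, adjusted p = 2.25e-07). One injured library, labelled Ihh-deleted 3, lay inside the contralateral range of Slc6a18.

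The apical carriers moved beside the proximal tubule markers. Their summed level was 442, 1383 and 3362 CPM in injured and 3215, 3762 and 4284 CPM in contralateral kidneys, and the 15 markers summed to 4457, 13650 and 34750 CPM in injured and 35070, 40680 and 62540 CPM in contralateral kidneys. Without Slc36a2, the apical carriers made 8.54% to 12.1% of the marker sum in injured kidneys (median 10.3%) and 6.85% to 10.0% in contralateral kidneys (median 9.29%). The median log2 fold change of the markers was -1.67. The part of tubule cell loss in these falls was not tested.

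Proteins that escort or accompany these carriers fell as well, 5 of 6 tested. Cltrn, which carries Slc6a19 and Slc6a18 to the renal brush border, had 98.7, 356 and 848 CPM in injured and 925, 1051 and 2047 CPM in contralateral kidneys (log2 -1.72, SE 0.20, adjusted p = 5.19e-08). Slc6a20b fell by 1.57 on the log2 scale (SE 0.19, adjusted p = 7e-08), and its relative Slc6a20a did not pass the test (log2 -0.26, SE 0.16, adjusted p = 0.147).

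Slc3a1 is shown by its promoter because it was the apical carrier whose start region held both letter strings searched for the liver and kidney factors Hnf1 and Hnf4. The strings were GTTAAT for Hnf1 and CAAAGTCCA for Hnf4, on either strand, from 250 bases before to 50 bases after the start site, in RefSeq promoters of build GRCm38.p6. GTTAAT stood in 8.24% of 27025 promoters and in 6 of the 43 member promoters at hand, with Slc3a1 the 1 of 4 apical carriers and Slc6a13 and Slc7a7 the 2 of 4 basolateral carriers to hold it. CAAAGTCCA stood in 0.555% of promoters and, among members, in that of Slc3a1. The region is chr17:85028097-85028396 on the plus strand, and capitals mark CAAAGTCCA, 39 bases before the start site, and ATTAAC, the opposite-strand spelling of GTTAAT, at the start site. The 2 strings do not overlap, and a match describes letters and not binding.
Slc3a1: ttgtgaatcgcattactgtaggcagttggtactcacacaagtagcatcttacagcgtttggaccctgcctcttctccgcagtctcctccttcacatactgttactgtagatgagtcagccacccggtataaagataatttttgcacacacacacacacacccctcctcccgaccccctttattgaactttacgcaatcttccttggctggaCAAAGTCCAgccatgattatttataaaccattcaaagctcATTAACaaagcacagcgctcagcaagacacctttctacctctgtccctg

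Slc36a2, a proton-driven carrier of glycine and proline, was the apical-list member that went the other way against contralateral kidneys. Against uninjured kidneys all 7 apical-list members had negative log2 fold changes, from -1.39 to -0.613, and Slc36a2 was not called. Slc36a2 had 0.445, 6.71 and 13.1 CPM in injured and 0, 0.721 and 10.8 CPM in contralateral kidneys, with wide overlap. The log2 fold change between these was 1.82 (SE 0.62, adjusted p = 0.0103). The call did not hold in the 2 intact arms together (log2 1.5, SE 0.73, adjusted p = 0.068). Adipocyte genes were looked at after these values were seen. In contralateral floxed vehicle library 3, Slc36a2 had 6.18 CPM beside 102 CPM of Ucp1, the uncoupling protein of brown fat, while the other 3 libraries of that group had 0.104, 0.143 and 0.0428 CPM of Slc36a2 and 0 CPM of Ucp1. The same library had 7.78 CPM of the fat hormone gene Adipoq and 13.96 CPM of the brown fat gene Cidea, against 0 CPM and at most 0.129 CPM in those 3. Contralateral wild-type libraries 3 and 4 had 7.83 and 10.8 CPM of Slc36a2 beside 36.4 and 50.1 CPM of Ucp1. Floxed vehicle injured library 2 had 7.03 CPM of Slc36a2 with 0.128 CPM of Ucp1 and 17.2 CPM of Adipoq. Floxed vehicle injured libraries 4 and 1 went the other way, since library 4 had 8.93 CPM of Slc36a2 with 0.0417 CPM of Adipoq and 0.209 CPM of Ucp1, and library 1 had 5.52 CPM of Slc36a2 with 0.618 CPM of Adipoq and 1.94 CPM of Ucp1. The part of attached fat in the Slc36a2 values was not tested.

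All 5 basolateral carriers fell, with a median log2 fold change of -1.24. Slc7a7, which releases dibasic amino acids with Slc3a2 as its heavy chain, had 27.4, 65.3 and 130 CPM in injured and 139, 167 and 256 CPM in contralateral kidneys. Its groups did not overlap, and it fell by 1.5 on the log2 scale (SE 0.15, adjusted p = 4.75e-09). Slc7a8, the neutral amino acid exchanger that shares that heavy chain, had 29.4, 66.9 and 112 CPM in injured and 118, 148 and 217 CPM in contralateral kidneys, also without overlap, and fell by 1.24 (SE 0.14, adjusted p = 2.92e-08). The carrier of GABA, taurine and betaine, Slc6a13, fell by 1.26 (SE 0.17, adjusted p = 3.4e-07), with 15.1, 47.2 and 93.3 CPM in injured and 87.3, 101 and 176 CPM in contralateral kidneys. Slc43a2, a facilitated route out of the cell for large neutral amino acids, fell by 0.97 (SE 0.11, adjusted p = 2.01e-08).

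Slc38a3, which brings glutamine into tubule cells for ammonia production, had 5.80, 16.0 and 62.6 CPM in injured and 28.1, 36.2 and 52.3 CPM in contralateral kidneys. The 4 labelled Ihh-deleted injured libraries lay between 31.6 and 62.6 CPM, within or above the contralateral range, and 7 of the 8 injured libraries of the intact arms lay below it. The log2 fold change over 3 arms was -1.02 (SE 0.19, adjusted p = 3.07e-05).

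**Figure D1:**
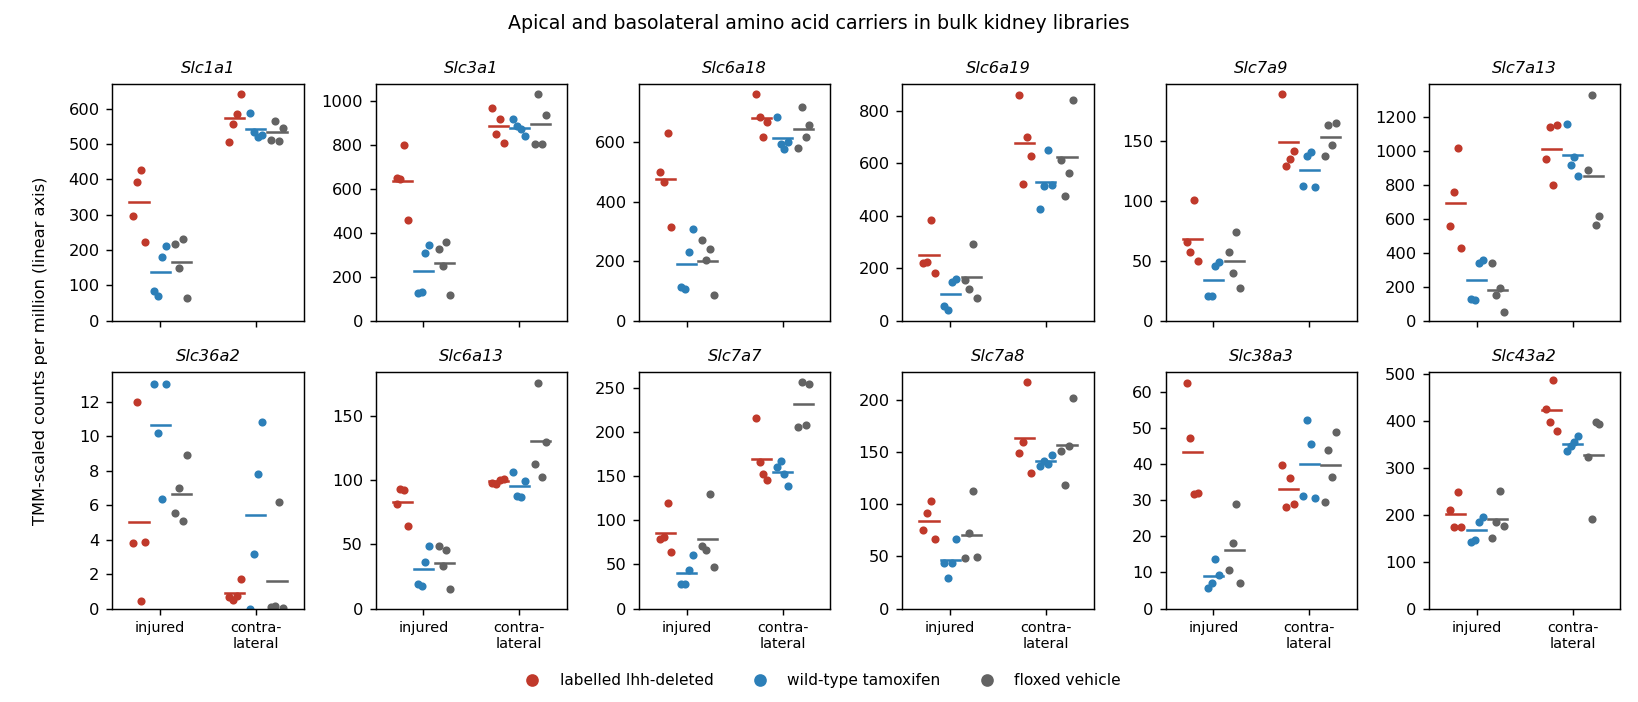
TMM-scaled CPM of the 7 apical and 5 basolateral carriers, 1 panel per gene with its own linear axis from 0, injured libraries left and contralateral libraries right; each point is 1 library, short lines are means of 4 libraries and colours mark the 3 arms. In Slc6a19, Slc3a1, Slc7a9, Slc1a1, Slc7a7 and Slc7a8 every injured point lies below every contralateral point, and Slc36a2 goes the other way with wide overlap.

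Carriers of the leukocyte list rose in injured kidneys, 6 of 7, with a median log2 fold change of 1.38. Slc7a2, the inducible arginine carrier known from activated macrophages, had 19.6, 71.7 and 196 CPM in injured and 7.57, 16.7 and 21.2 CPM in contralateral kidneys. One injured library, labelled Ihh-deleted 3 at 19.6 CPM, lay inside the contralateral range, and the log2 fold change was 2.18 (SE 0.21, adjusted p = 2.69e-09). Slc38a1, a sodium-driven glutamine carrier of proliferating cells, had 10.3, 30.2 and 62.0 CPM in injured and 4.64, 6.51 and 8.70 CPM in contralateral kidneys. Its groups did not overlap, with a log2 fold change of 2.17 (SE 0.20, adjusted p = 1.8e-09). Slc38a2, its relative that cells induce when amino acids are scarce, was separate too, at 184, 240 and 339 CPM in injured and 76.6, 89.7 and 122 CPM in contralateral kidneys (log2 1.38, SE 0.10, adjusted p = 8.36e-11).

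Slc7a5, the large neutral amino acid exchanger of dividing cells, had 4.13, 15.7 and 27.4 CPM in injured and 2.77, 4.19 and 5.72 CPM in contralateral kidneys. Labelled Ihh-deleted library 3 was again the injured library inside the contralateral range, and the log2 fold change was 1.87 (SE 0.20, adjusted p = 1.36e-08). Slc7a6, an exchanger of dibasic for neutral amino acids, rose by 1.35 (SE 0.15, adjusted p = 2.73e-08), and Slc1a5, the glutamine and neutral amino acid exchanger, by 0.99 (SE 0.12, adjusted p = 1.14e-07). Slc3a2, the heavy chain that Slc7a5, Slc7a6, Slc7a7 and Slc7a8 share, had 82.8, 162 and 239 CPM in injured and 161, 176 and 218 CPM in contralateral kidneys. The injured range spanned the contralateral one, and the log2 fold change was -0.20 (SE 0.08, adjusted p = 0.0286). That call depended on scaling: without TMM factors the value was 0.16 (adjusted p = 0.0367), and it was lost with 5 of the 29 libraries left out one at a time, among them contralateral floxed vehicle library 2 (adjusted p = 0.0506).

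Both the leukocyte list and the leukocyte markers were higher in injured than in contralateral kidneys. The 7 carriers summed to 493, 619 and 726 CPM in injured and 316, 335 and 369 CPM in contralateral kidneys, and the 8 macrophage markers to 312, 1186 and 2245 CPM in injured and 155, 216 and 460 CPM in contralateral kidneys. No macrophage marker was at 0 in either group of kidneys. Between the injured arms the 2 sums were not ordered alike: the carriers' median was 624 CPM in labelled Ihh-deleted, 546 CPM in wild-type and 649 CPM in floxed vehicle kidneys, and the macrophage markers' median was 542, 1701 and 1250 CPM in those arms. The carrier sum hides a split. Against injured intact kidneys, injured labelled Ihh-deleted kidneys had Slc3a2 and Slc38a2 called higher and Slc7a2 and Slc38a1 called lower. Of these, the calls of Slc38a2 and Slc38a1 did not hold with every single library left out. The list's median log2 difference was -0.513. In single cells of an injured kidney the list did not follow its name throughout. Slc7a2 had 26 of its 33 UMIs in fibroblast and mural-like and 0 in macrophage-like cells. Slc38a2 had 111 CPM in endothelial-like, 67.3 CPM in T and NK-like and 45.8 CPM in macrophage-like cells. In unnamed clusters Slc38a2 had 253 CPM (28 UMIs) where Cldn5 and Sox17 led and 134 CPM (81 UMIs) where Cryab and Lcn2 led. The part of leukocyte number in the carriers' rise was not tested.

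Of the 10 stress-list carriers, 4 of which (Slc1a5, Slc3a2, Slc7a5 and Slc38a2) are also on the leukocyte list, 7 rose and 3 fell, with a median log2 fold change of 1.18. Slc7a1, the general carrier of arginine and lysine, had 37.6, 64.0 and 82.1 CPM in injured and 12.4, 15.4 and 26.5 CPM in contralateral kidneys. Every injured library lay above every contralateral one, and the log2 fold change was 1.94 (SE 0.12, adjusted p = 1.03e-11). Slc43a1, a facilitated carrier of large neutral amino acids, had 1.30, 5.07 and 7.57 CPM in injured and 0.672, 1.27 and 1.55 CPM in contralateral kidneys (log2 1.78, SE 0.21, adjusted p = 6.83e-08). Slc7a3, a further arginine carrier, stayed low at 0.578, 1.13 and 1.45 CPM in injured and 0.229, 0.366 and 0.648 CPM in contralateral kidneys and rose by 1.47 (SE 0.23, adjusted p = 4.41e-06). Slc7a11, which imports cystine for glutathione in exchange for glutamate, had 10.2, 16.1 and 23.3 CPM in injured and 3.75, 11.5 and 13.7 CPM in contralateral kidneys. Its rise was smaller, 0.53 on the log2 scale (SE 0.14, adjusted p = 0.00155), and within single arms it passed in the floxed vehicle arm alone.

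The 3 stress-list members that fell were Slc3a2, Slc1a4 and Slc6a9. Slc1a4, which exchanges alanine, serine and cysteine, had 9.64, 23.0 and 44.6 CPM in injured and 34.1, 46.4 and 58.6 CPM in contralateral kidneys, and fell by 1.08 on the log2 scale (SE 0.14, adjusted p = 2.82e-07). Slc6a9, a glycine carrier, fell by 0.355 (SE 0.07, adjusted p = 4.38e-05), and without TMM factors its value was 0.00531 (adjusted p = 0.942). Scaling to library totals alone put the median of all genes at 0.42 instead of 0.05, and with it 10447 genes were called higher and 3374 lower, against 6863 higher and 6109 lower with TMM factors. Of genes of the amino acid response outside the families, 6 of 8 rose, where 39.0% of all genes were called higher. They included Chac1, a glutathione-degrading enzyme (log2 1.68, SE 0.26, adjusted p = 3.31e-06), Asns, the asparagine synthetase (1.4, SE 0.20, adjusted p = 1.28e-06), and Atf4 itself (0.84, SE 0.08, adjusted p = 6.02e-09). Sesn2, a leucine sensor of the same response, fell by 0.98 (SE 0.16, adjusted p = 6.8e-06). By arm, 5 of the 8 rose in the labelled Ihh-deleted, 2 (Asns and Phgdh) in the wild-type tamoxifen and 5 in the floxed vehicle arm, and Atf4 did not pass in the wild-type tamoxifen arm (log2 0.29, SE 0.14, adjusted p = 0.0846).

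The element TGATGNAA, where N is any base, is the string that Atf4 and its partners bind in amino acid response genes. It stood on either strand in 4.51% of 27025 RefSeq promoters, and in those of Slc7a11 and Slc1a4 among the 7 stress-list carriers with a promoter at hand. Both are shown because their RNA went opposite ways, Slc7a11 up and Slc1a4 down. The regions, each 300 bases of build GRCm38.p6 on the minus strand, are chr3:50443564-50443863 for Slc7a11 and chr11:20332664-20332963 for Slc1a4. Capitals mark the element, spelled TTGCATCA where it lies on the opposite strand: 66 and 47 bases before the start site of Slc7a11, and 4 bases before that of Slc1a4.
Slc7a11: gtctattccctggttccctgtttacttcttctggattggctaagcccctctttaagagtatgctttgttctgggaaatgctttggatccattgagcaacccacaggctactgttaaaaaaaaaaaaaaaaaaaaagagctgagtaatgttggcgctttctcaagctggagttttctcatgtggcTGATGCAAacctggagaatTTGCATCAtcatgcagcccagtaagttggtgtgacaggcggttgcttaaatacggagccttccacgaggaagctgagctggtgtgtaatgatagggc
Slc1a4: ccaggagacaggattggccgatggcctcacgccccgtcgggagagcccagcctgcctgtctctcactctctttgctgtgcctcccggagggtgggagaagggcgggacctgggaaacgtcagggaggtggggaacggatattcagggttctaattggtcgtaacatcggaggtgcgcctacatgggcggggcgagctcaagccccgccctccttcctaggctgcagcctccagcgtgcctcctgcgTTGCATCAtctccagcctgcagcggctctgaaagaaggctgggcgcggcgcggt

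**Figure D2:**
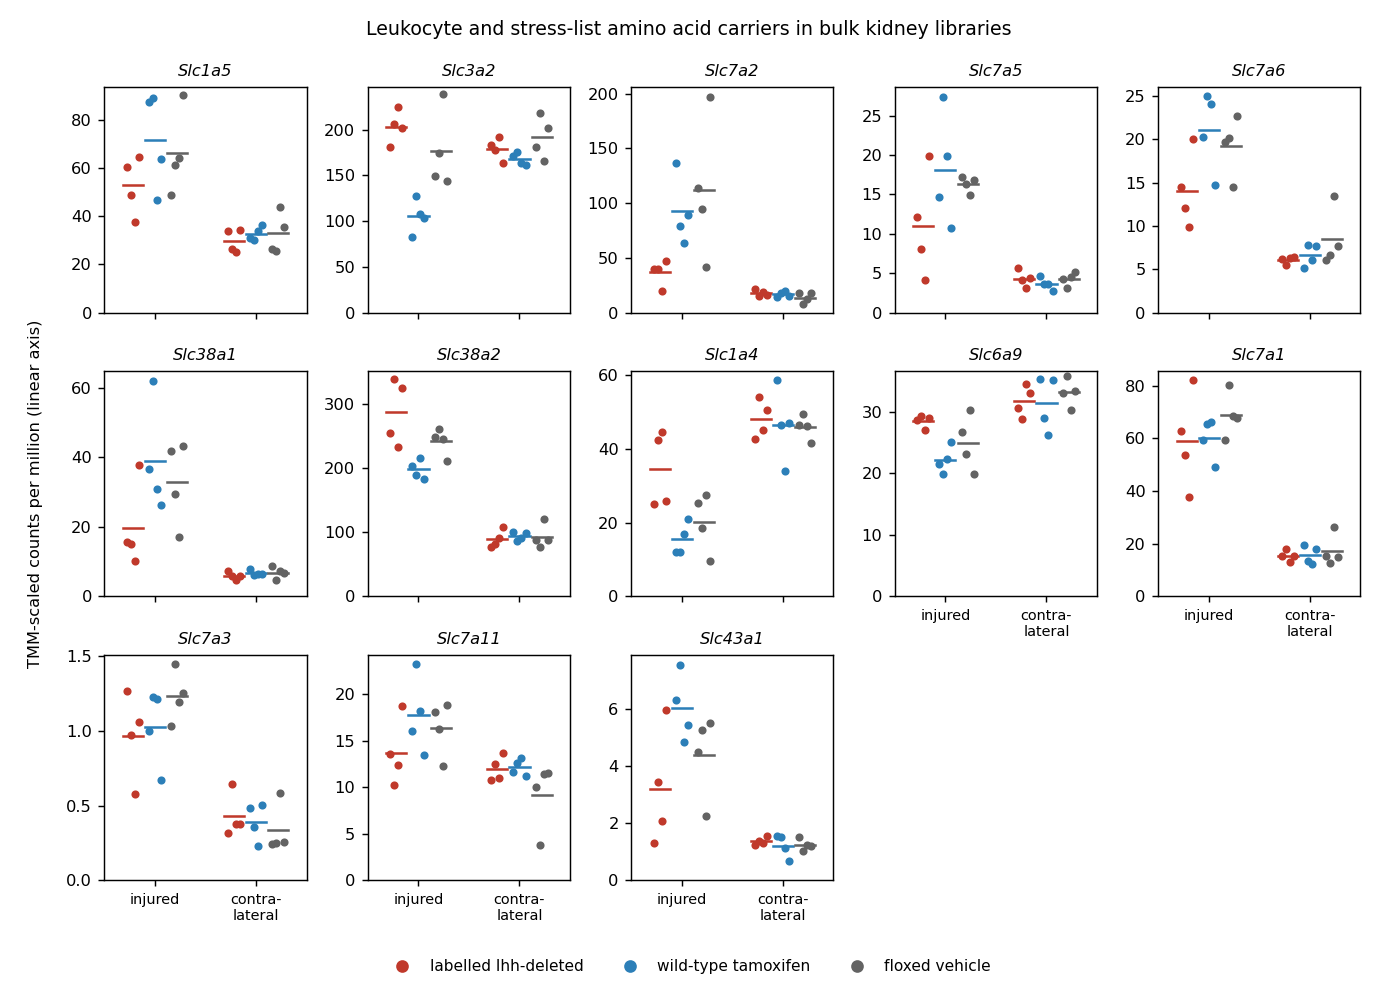
TMM-scaled CPM of the carriers on the leukocyte and stress lists, 1 panel per gene with its own linear axis from 0, injured libraries left and contralateral libraries right; each point is 1 library, short lines are means of 4 libraries and colours mark the 3 arms. Slc7a1, Slc38a1 and Slc38a2 are separate between the groups, Slc3a2 is spread around the contralateral level, and Slc1a4 is lower in injured kidneys.

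The members with other roles split. Of the 5 lysosomal carriers, the proton-driven Slc36a1 fell by 1.15 on the log2 scale (SE 0.11, adjusted p = 3.6e-09) and the glutamine and asparagine carrier Slc38a7 by 0.395 (SE 0.07, adjusted p = 7.79e-06). Slc36a4, also proton-driven, rose by 0.72 (SE 0.07, adjusted p = 3.1e-09) and Slc7a14 by 0.37 (SE 0.12, adjusted p = 0.00964), while Slc38a9, the arginine sensor of the lysosome, did not pass (0.07, SE 0.07, adjusted p = 0.409). Within single arms, Slc7a14 passed in the floxed vehicle arm alone. Both osmolyte carriers fell. Slc6a6, the taurine carrier, had 388, 524 and 648 CPM in injured and 548, 832 and 984 CPM in contralateral kidneys (log2 -0.68, SE 0.09, adjusted p = 4.33e-07), and the betaine carrier Slc6a12, at no more than 4.85 CPM, fell by 1.56 (SE 0.34, adjusted p = 0.000216). Taken by arm, Slc6a12 passed in the floxed vehicle arm alone.

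Among the 14 carriers of transmitters, creatine and brain amino acids, 9 were tested, of which 3 rose and 4 fell. Of all genes tested in this contrast, 39.0% were called higher and 34.7% lower. The serotonin carrier Slc6a4 had 1.34, 2.89 and 5.67 CPM in injured and 5.73, 8.66 and 14.8 CPM in contralateral kidneys, just without overlap (log2 -1.65, SE 0.20, adjusted p = 9.37e-08). Slc6a15, a neutral amino acid carrier, fell by 1.28 (SE 0.17), Slc6a8, the creatine carrier, by 1.02 (SE 0.11) and the glutamate carrier Slc1a2 fell by 0.725 (SE 0.12). The glutamate carrier Slc1a3 rose by 0.92 (SE 0.17, adjusted p = 3.3e-05) and Slc6a17 by 0.375 (SE 0.11, adjusted p = 0.0035). The glycine carrier Slc6a5, at no more than 1.69 CPM, had a log2 fold change of 1.66 (SE 0.74, adjusted p = 0.0468), which leaving out any of 17 single libraries ended. Leaving out wild-type tamoxifen injured library 2, the value was 0.82 (adjusted p = 0.821).

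Of 15 members on no list, 10 were tested, 2 rose and 3 fell, where 39.0% of all genes were called higher and 34.7% lower. Slc43a3, a purine nucleobase carrier in human cells, rose by 0.87 (SE 0.16, adjusted p = 2.47e-05) and Slc7a15, at no more than 0.76 CPM, by 1.25 (SE 0.47, adjusted p = 0.0188). Slc38a4, a sodium-driven neutral amino acid carrier, fell by 0.95 (SE 0.16), Slc7a12 by 0.73 (SE 0.29, adjusted p = 0.0264) and Slc38a10 by 0.46 (SE 0.05). The calls of Slc7a12 and Slc7a15 were each lost with 1 or more libraries left out: contralateral labelled Ihh-deleted library 1 (adjusted p = 0.0502) or contralateral wild-type library 3 (adjusted p = 0.0697) for Slc7a12, and injured labelled Ihh-deleted library 4 (adjusted p = 0.0592) for Slc7a15.

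**Figure D3:**
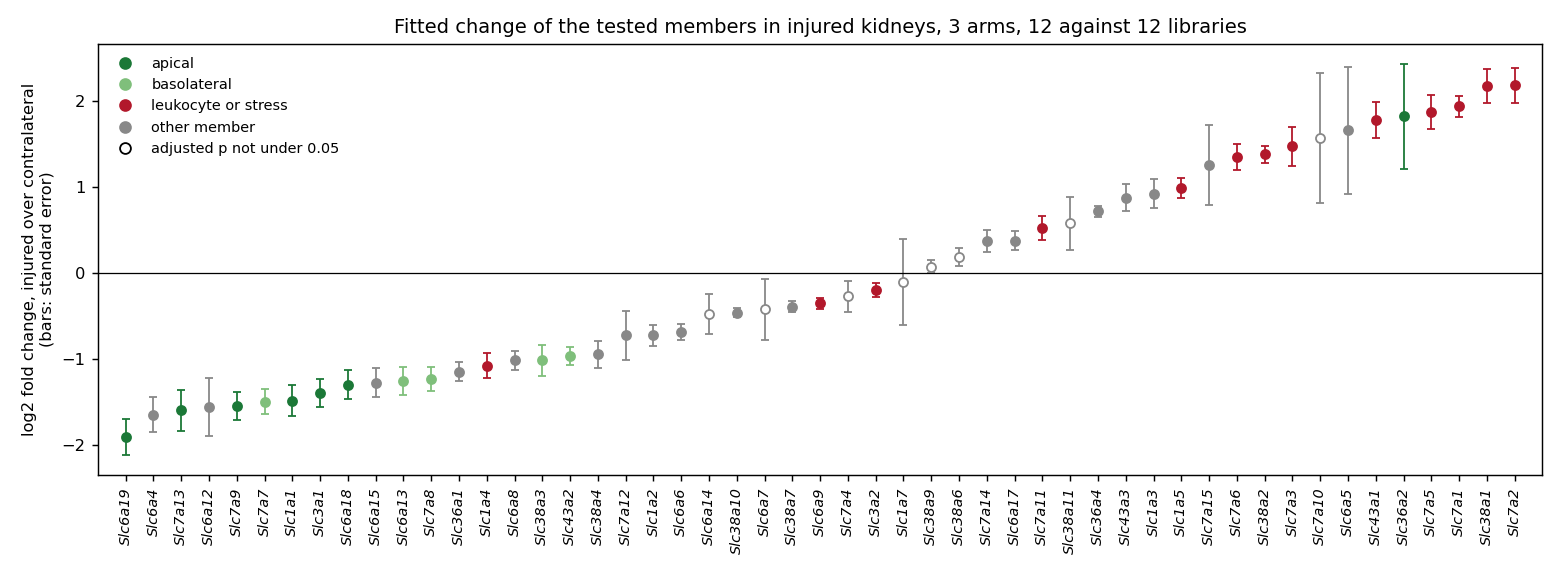
Fitted log2 fold change, injured over contralateral kidneys, of the 51 tested members in rising order, with the standard error as bars; filled points passed the test at an adjusted p of 0.05 and colours mark the lists. Apical and basolateral carriers fill the left end together with other members, from -1.91 for Slc6a19, and carriers of the leukocyte and stress lists fill most of the right end, up to 2.18 for Slc7a2.

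The same contrast was taken within each arm. In the labelled Ihh-deleted arm 11 members rose and 14 fell, where 33.8% of all genes were called, 19.3% higher and 14.6% lower. In the wild-type tamoxifen arm 14 rose and 25 fell (60.7% of all genes called, 32% higher and 28.7% lower), and in the floxed vehicle arm 18 rose and 24 fell (63.7% of all genes called, 32.6% higher and 31.0% lower). Of the 7 apical carriers, 2 were called lower in the labelled Ihh-deleted arm, Slc6a19 (log2 -1.43, SE 0.36, adjusted p = 0.00502) and Slc7a9 (-1.12, SE 0.28, adjusted p = 0.00399), while 6 were called lower in each intact arm. Slc1a1 and Slc3a1 did not pass in the labelled Ihh-deleted arm, but every injured library there lay below every contralateral one. The apical median log2 fold change was -0.55 in that arm, -1.96 in the wild-type tamoxifen and -1.7 in the floxed vehicle arm. Slc38a1, Slc38a2, Slc1a5, Slc7a2, Slc7a5 and Slc7a6 of the leukocyte list rose in each of the 3 arms. The split moved with scaling: with library totals alone, 13 rose and 8 fell in the labelled Ihh-deleted, 18 and 16 in the wild-type tamoxifen and 21 and 16 in the floxed vehicle arm, and 23 rose and 21 fell over 3 arms.

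Whether the effect of injury differed was tested as the effect in the labelled Ihh-deleted arm minus the mean effect in the intact arms. It differed in 10 of 51 members, 7 with a positive and 3 with a negative difference, where 16.1% of all genes were called, 10.4% positive and 5.74% negative. Scaled to library totals, 5 members differed positively and 4 negatively, and of all genes 824 positively and 2483 negatively, against 1824 and 1010 with TMM factors. Slc38a3 had the widest positive difference, 2.10 on the log2 scale (SE 0.40, adjusted p = 0.00403). Its injured libraries had 62.6, 47.3, 31.6 and 31.9 CPM in the labelled Ihh-deleted arm, against 5.80, 7.15, 13.8 and 9.38 CPM in injured wild-type and 10.6, 18.3, 28.96 and 7.06 CPM in injured floxed vehicle kidneys. All 4 lay above all 8. The fitted effect of injury on Slc38a3 was 0.38 in the labelled Ihh-deleted arm (SE 0.32, adjusted p = 0.356) and -1.72 in the intact arms (SE 0.23, adjusted p = 5.22e-07).

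Of the apical carriers, Slc7a13, Slc3a1 and Slc6a18 fell less in the labelled Ihh-deleted arm, and the other 4 did not pass. Slc7a13 had 556, 760, 1020 and 431 CPM in injured labelled Ihh-deleted kidneys, against 127, 124, 343 and 356 CPM in injured wild-type and 343, 148, 191 and 50.5 CPM in injured floxed vehicle kidneys, without overlap. The difference of its injury effects was 1.58 (SE 0.50, adjusted p = 0.0343). Slc3a1 had 647, 641, 796 and 457 CPM in injured labelled Ihh-deleted kidneys, against 125, 131, 306 and 341 CPM in injured wild-type and 326, 246, 355 and 118 CPM in injured floxed vehicle kidneys. Those groups were separate as well, and the difference was 1.39 (SE 0.34, adjusted p = 0.0136). Slc6a18 differed by 1.17 (SE 0.35, adjusted p = 0.0287) and the basolateral Slc6a13 by 1.5 (SE 0.35, adjusted p = 0.0104).

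On the other side, Slc7a2 had 39.7, 40.0, 19.6 and 47.3 CPM in injured labelled Ihh-deleted kidneys, against 137, 79.3, 64.0 and 89.5 CPM in injured wild-type and 114, 94.2, 41.5 and 196 CPM in injured floxed vehicle kidneys. The highest of the 4 lay above the lowest of the 8, and the injury effect differed by -1.70 (SE 0.42, adjusted p = 0.0137). The lysosomal Slc36a4 differed by -0.66 (SE 0.14, adjusted p = 0.00799), with 24.6, 26.0, 23.5 and 31.3 CPM in injured labelled Ihh-deleted kidneys, below all 8 injured intact libraries at 35.7 to 49.8 CPM. Slc38a11, at no more than 1.76 CPM, differed by -2.44 (SE 0.67, adjusted p = 0.02). Of the stress list, Slc1a4 (0.90, SE 0.30, adjusted p = 0.0419) and Slc3a2 (0.58, SE 0.17, adjusted p = 0.028) had positive differences, and the 8 others did not pass. Outside the families, Cltrn (1.29, SE 0.42, adjusted p = 0.0377), Atf4 (1.14, SE 0.18, adjusted p = 0.00181), Chac1 (1.82, SE 0.55, adjusted p = 0.0303) and Ddit3, a transcription factor of the stress response (1.49, SE 0.28, adjusted p = 0.00418), had larger values in the labelled Ihh-deleted arm.

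The number of members called in this test moved with single libraries. It was 10 with all, 5 without injured labelled Ihh-deleted library 3, 6 without library 2 of that group and 18 without its library 4, and 6 without contralateral labelled Ihh-deleted library 2 or 4. Slc38a3, Slc3a1, Slc6a13, Slc7a2 and Slc36a4 were called with every one of the 29 libraries left out. The proximal tubule markers had positive differences in 6 of 15 and none negative, and no macrophage marker passed (0 of 8, median -0.81).

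**Figure D4:**
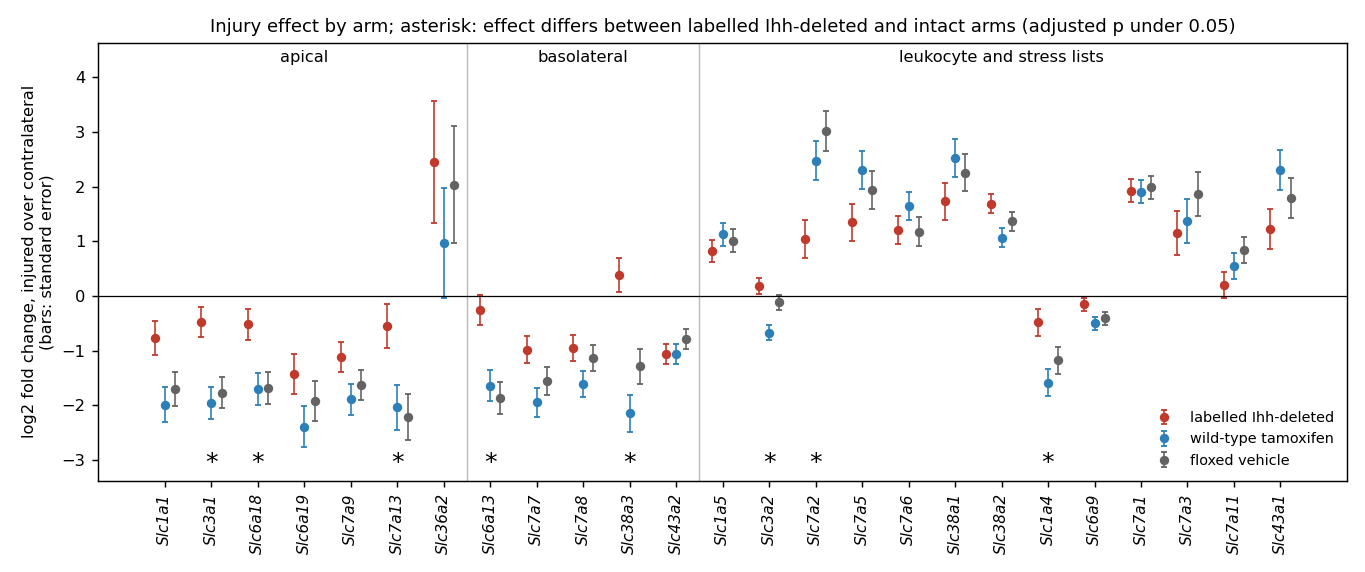
Fitted log2 fold change, injured over contralateral kidneys, of the apical, basolateral, leukocyte and stress-list carriers in each arm, with the standard error as bars; an asterisk marks genes whose injury effect differed between the labelled Ihh-deleted and intact arms. For Slc38a3, Slc7a13, Slc3a1, Slc6a18 and Slc6a13 the labelled Ihh-deleted point lies nearest to or above 0, and for Slc7a2 it lies lowest of the 3.

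Compared directly, injured labelled Ihh-deleted kidneys held more RNA of 6 of 7 apical and 4 of 5 basolateral carriers than injured kidneys of the intact arms. Of 51 members, 19 were higher and 5 lower, where 20.5% and 16.7% of all genes were, 37.2% in all. With library totals 12 members were higher and 11 lower, and DESeq2 called 16 higher and 8 lower. The fitted log2 differences of the apical carriers were 1.73 for Slc7a13 (SE 0.34, adjusted p = 0.000747), 1.39 for Slc3a1, 1.29 for Slc6a18, 1.16 for Slc1a1, 0.97 for Slc6a19 and 0.74 for Slc7a9. Those of the basolateral carriers were 1.84 for Slc38a3 (SE 0.27, adjusted p = 8.01e-05), 1.33 for Slc6a13, 0.61 for Slc7a7 and 0.56 for Slc7a8. Lower were Slc7a2 (-1.47, SE 0.31, adjusted p = 0.00141), Slc38a11 (-1.4), Slc38a1 (-0.86), Slc43a3 (-0.77) and Slc36a4 (-0.645).

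Cell markers moved in the same comparison. All 15 proximal tubule markers were higher in injured labelled Ihh-deleted kidneys and summed to 14490 to 34750 CPM (median 21630) in the 4 libraries, against 4457 to 16230 CPM (median 10310) in the 8 of the intact arms. All 8 macrophage markers were lower and summed to 312 to 1083 CPM, against 707 to 2245 CPM in the intact arms, and 3 of 10 T and NK markers were lower. The apical share of the marker sum was 9.67% to 12.1% in injured labelled Ihh-deleted and 8.54% to 10.97% in injured intact kidneys. The part of these marker differences in the carrier differences was not tested. The count fell to 14 without injured labelled Ihh-deleted library 3. Over the 29 fits that leave out 1 library, 13 of the 24 calls held in every fit. Among the calls that did not were those of Slc6a19, Slc7a9, Slc7a7, Slc7a8, Slc38a1, Slc38a2, Slc43a3 and Slc38a11. Without that library 3, the adjusted p was 0.122 for Slc6a19, 0.144 for Slc7a9, 0.193 for Slc7a7 and 0.147 for Slc7a8. Against the floxed vehicle arm alone, which shares the genotype, 13 members were called, 12 of them among the 24, where 16.4% of all genes were. Scaled to library totals, 1803 genes were higher and 5467 lower, against 3609 higher and 2930 lower with TMM factors.

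Contralateral kidneys were compared between the arms in the same way. None of 51 members was called by edgeR between contralateral labelled Ihh-deleted and contralateral intact kidneys, where 0.00568% of all genes were, none by DESeq2, and 1, Slc38a11, had an unadjusted p under 0.05.

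Comparisons with uninjured kidneys rest on 2 uninjured libraries, 1 of which has 0.593 M counts. Injured against uninjured kidneys, 11 members rose and 16 fell, where 38.2% of all genes were called, 19.9% higher and 18.4% lower, but without uninjured library 3 the count was 4. Apical carriers fell in 5 of 7, and Slc6a19 did not pass (log2 -0.66, SE 0.38, adjusted p = 0.174). Slc6a19 had 272 and 240 CPM in uninjured and 339, 302 and 282 CPM in nephrectomy kidneys, below every contralateral library, the lowest of which had 426 CPM, but the contralateral to uninjured difference of 1.25 (SE 0.44) did not pass the test over all genes (adjusted p = 0.221). Contralateral against uninjured kidneys, edgeR called 0 of 51 members, where 0.455% of all genes were called, DESeq2 called 1, and 7 had an unadjusted p under 0.05. Without contralateral floxed vehicle library 2 edgeR called 2, and 1 without floxed vehicle injured library 2, labelled Ihh-deleted injured library 2 or contralateral floxed vehicle library 3. Nephrectomy against uninjured kidneys, 1 of 51 members was called, where 0.176% of all genes were. That was Slc1a3, with 2.98, 2.16 and 2.36 CPM in nephrectomy and 12.4 and 9.66 CPM in uninjured kidneys (log2 -2.06, SE 0.43, adjusted p = 0.0436), and the call was lost in 16 of the 29 fits that leave out 1 library, with uninjured library 3 giving the weakest value (adjusted p = 0.267).

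Single cells place the carriers in cell types. The injured library held 3063 and the uninjured library 1313 cells, with 8 barcodes in both and 8 cells marked as doublets but kept, and each state has 1 library, so no test was made and intervals cover counting error only. Clusters were formed without the members and named from markers. Cells of the proximal tubule-like class were 29.5% of injured cells (902 cells, 95% exact binomial interval 27.8% to 31.1%) and 79.7% of uninjured cells (1047 cells, 77.5% to 81.9%), in sorted live cells from digested tissue. Their median depth was 2025 unique molecules (UMIs) per cell in the injured and 2503 in the uninjured library.

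Within that class, the apical carriers together had 992 CPM in the injured and 1090 CPM in the uninjured library, a log2 ratio of -0.14. A cluster had to hold proximal tubule markers to enter the class, so tubule cells that had lost them are not covered by this ratio. Slc7a13 had 444 CPM (exact Poisson interval 418 to 472) in injured and 485 CPM (462 to 510) in uninjured cells, and Slc3a1 had 139 CPM (125 to 156) in injured and 155 CPM (142 to 169) in uninjured cells. Slc6a19 had 123 CPM (109 to 138) in injured and 157 CPM (144 to 171) in uninjured cells, while Slc7a9 had 121 and 122 CPM and Slc1a1 had 108 and 107 CPM in injured and uninjured cells. In bulk, against contralateral kidneys, the same 5 carriers had log2 fold changes of -1.4 to -1.91. The single-cell reference is an uninjured kidney, and against bulk uninjured kidneys the 7 apical carriers ran from -1.39 to -0.613 (median -1.22). That bulk comparison rests on 2 uninjured libraries. Among basolateral carriers Slc7a8 had 40.5 CPM (32.7 to 49.5) in injured and 75.0 CPM (65.9 to 84.8) in uninjured cells, and Slc7a7 had 122 and 118 CPM. With cells above 25% mitochondrial UMIs removed, the apical log2 ratio was -0.04.

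Proximal tubule-like clusters differed in which apical carrier they held. Slc6a19 had 352 CPM in injured and 409 CPM in uninjured cells of a cluster with Slc5a12 and Slc5a2, sodium-coupled lactate and glucose carriers, among its leading genes, and 17.5 and 23.3 CPM in injured and uninjured cells of the cluster led by Kap and Slco1a1. Slc7a13 was the reverse, with 5.02 CPM in injured and 12.2 CPM in uninjured cells of the first and 842 and 965 CPM in injured and uninjured cells of the second cluster. Slc7a7 followed Slc6a19, at 306 and 251 CPM in injured and uninjured cells of the first cluster and 21.8 and 22.4 CPM in the second. These levels are a description, since the cells were grouped by their other genes. An unnamed cluster led by Cryab and Lcn2, with 210 injured and 32 uninjured cells, had 6.60 CPM of Slc7a13 and 39.6 CPM of Slc3a1 in injured cells. Its uninjured cells had 2 UMIs of Slc7a13 (21.85 CPM) and 0 UMIs of Slc3a1, so no fall with injury is read there. The cluster was not placed in the proximal tubule-like class.

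Other cell types of the injured library held the other carriers. Slc3a2 reached 558 CPM (489 to 634) in plasma-like and 537 CPM (464 to 618) in endothelial-like cells, against 204 CPM in macrophage-like and 165 CPM in proximal tubule-like cells. Among the named classes, Slc43a3 was highest in endothelial-like cells, at 437 CPM, and Slc6a6 in fibroblast and mural-like cells, at 620 CPM (533 to 716). The unnamed cluster led by Cldn5 and Sox17 had 614 CPM of Slc6a6 (477 to 779). Slc38a1 had 57.6 CPM in dendritic-like, 42.5 CPM in T and NK-like and 42.0 CPM in B-like cells, and Slc1a5 had 113 CPM in T and NK-like cells. Slc7a2 was found in fibroblast and mural-like cells, with 26 of its 33 UMIs and 87.1 CPM (56.9 to 128), and had 0 UMIs in macrophage-like cells, where 3 UMIs, the limit taken for a count of 0, would be 3.62 CPM. Slc7a11 had 25 of its 29 UMIs in macrophage-like cells, at 30.1 CPM (19.5 to 44.5). Slc36a2 had 4 UMIs, all in fibroblast and mural-like cells. Slc7a13, a tubule carrier, had 21.2 CPM in T and NK-like and 12.9 CPM in B-like cells; whether free RNA gave these counts was not tested, and values of that size in leukocyte-like cells are not read as expression. The uninjured library held 1 to 17 cells in each leukocyte-like class, too few to set beside these.

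**Figure D5:**
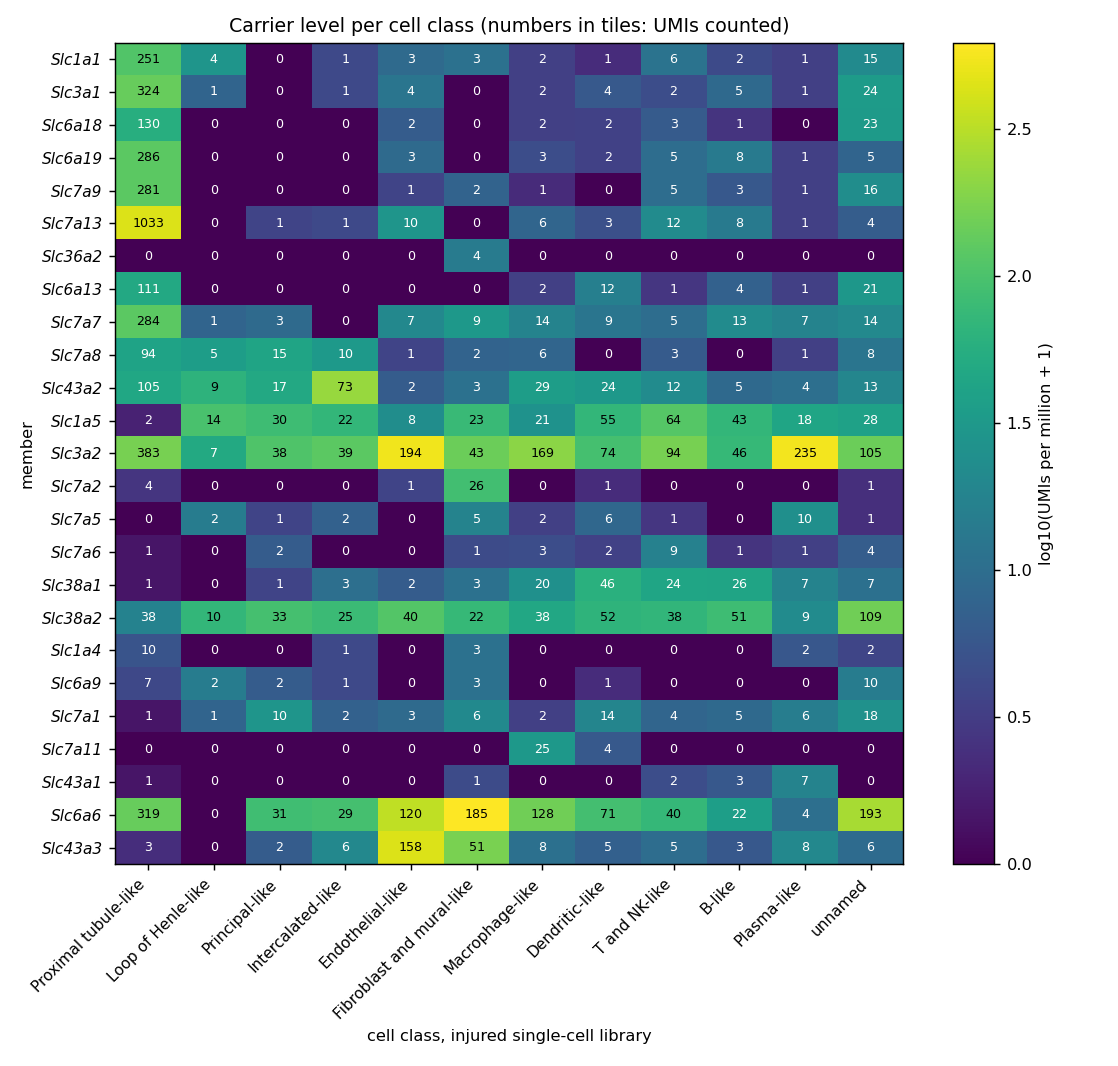
CPM of carriers in each cell class of the injured single-cell library, as colour on a log10 scale with the UMIs counted in each tile, genes down the page and classes across; the library is 1 sample and cells were clustered without these genes. Apical carriers are concentrated in the proximal tubule-like column, Slc3a2 is high in the plasma-like and endothelial-like columns, and Slc7a2 in the fibroblast and mural-like column.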

How the data were processed

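Bulk RNA values are expected counts per transcript that the authors deposited, made with Salmon 1.4 per the submitters' processing notes; single-cell tables hold UMI counts that the authors deposited, from 10x 3′ libraries processed with Cell Ranger and STAR per the same notes. Build GRCm38 is given by the labels. Transcripts were summed per gene through GENCODE M21 (630 transcripts, with 0.213% of counts, were not in it), rounded, filtered with filterByExpr and fitted in edgeR 4.0.16 (quasi-likelihood, TMM, R 4.3.3) over 29 libraries in 8 groups; p-values were adjusted over 17591 genes by Benjamini-Hochberg, with calls at 0.05. SE is the log2 fold change divided by the square root of F. DESeq2 1.42.0 was an alternative. On simulated data, 92% and 97% of genes changed by log2 1 and 2 were recovered for the 3-arm contrast over 16584 genes, with 11 false calls. Injured libraries there took contralateral means apart from 100 changed genes per size, up and down alike. The simulation therefore does not cover a contrast in which 73.7% of genes are called. Cells were clustered with scanpy 1.11.5 (Leiden, resolution 1.0, 2000 variable genes without the members). Intervals cover counting error only.

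Every measured member of the apical, basolateral, leukocyte and stress lists is named. Of the other lists, up to 10 per direction with the largest change past the threshold are named over 3 arms, and up to 5 per direction of all members in every other contrast, with the apical and basolateral ones added between injured groups. At most 4 partners and 4 response genes are named, and in single cells the text draws on the 5 highest members per class and the listed carriers. Members and lists were chosen with earlier results of these data known. Same-numbered libraries correlated at r from -0.207 to 0.183 over 12 pairs, not above 0.1 in every pair, so pairing was not used. Some results on single genes are not reported here.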

Additional observations from a re-analysis of the deposited data

Results flagged for a closer look

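Among 150 groups of 4 libraries checked for a library far from the other 3, which chance flags in about 1 in 20, 2 stood out, both in library 3 of the contralateral floxed vehicle group. Slc36a2 had 6.18 CPM there, against 0.0428 to 0.143 CPM in the other 3, and Slc7a3 had 0.586 CPM, against 0.243 to 0.257 CPM.

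The injury effect differed between the labelled Ihh-deleted and the intact arms by an interaction test in edgeR, on the log2 scale, for Slc38a3 (2.10), Slc7a13 (1.58), Slc6a13 (1.5), Slc3a1 (1.39), Slc6a18 (1.17), Slc1a4 (0.90), Slc3a2 (0.58), Slc36a4 (-0.66), Slc7a2 (-1.70) and Slc38a11 (-2.44), with adjusted p-values between 0.00403 and 0.0419.

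In the 3 libraries with a heart profile, which no comparison used, Slc36a2 had 21.02 to 35.3 CPM of library totals, where the highest kidney library had 17.1 CPM, and Slc38a4 had 10.4 to 11.7 CPM, where the highest kidney library had 9 CPM.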

How the results depend on the processing

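Leaving out 1 library at a time gave 41 to 44 members called for injured against contralateral kidneys over 3 arms, 18 to 28 in the labelled Ihh-deleted, 36 to 41 in the wild-type and 38 to 43 in the floxed vehicle arm, 5 to 18 for the difference of injury effects, 14 to 28 between injured labelled Ihh-deleted and injured intact kidneys, 0 to 0 between contralateral ones, 4 to 29 for injured, 0 to 2 for contralateral and 0 to 1 for nephrectomy against uninjured kidneys. With all 32 libraries, heart profiles included, the counts were 8, 20 and 19 in the 3 arms, 1 for the difference of effects, 4 between injured groups, and 15, 19 and 0 against uninjured kidneys. With the replicate block 6 members differed in injury effect. Against the floxed vehicle arm alone 13 differed between injured kidneys, DESeq2 called 1 for contralateral against uninjured, and nephrectomy gave 0 with no filter or library totals. Direction reversed with library totals for Slc3a2 (0.16) and Slc6a9 (0.00531) over 3 arms, Slc38a7 in the wild-type arm (0.00586), and Slc3a2 (0.34), Slc6a9 (0.0485) and Slc38a7 (0.19) in the floxed vehicle arm, and against that arm alone for Slc6a5 (-2.34). With all 32 libraries it reversed for Slc1a2 (0.19), Slc1a7 (-2.55), Slc43a3 (-0.87), Slc6a13 (0.11) and Slc43a2 (0.225) in injured, and Slc1a7 (-2.45), Slc38a3 (-0.74), Slc38a2 (-1.21), Slc43a3 (-1.76), Slc43a1 (-1.30) and Slc38a11 (-1.82) in contralateral against uninjured kidneys. The cause was not tested. The proximal tubule-like share was 26.05% injured and 69.84% uninjured at resolution 2.0, and 21.63% and 74.75% with at most 25% mitochondrial UMIs; the apical log2 ratio was -0.0427 there and -0.214 per non-mitochondrial UMI. The uninjured groups limit depth most, with 0.593 M counts in 1 of 2 libraries. Scaling to library totals and to non-mitochondrial UMIs was chosen after seeing the data.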
